A study of Arabidopsis thaliana x Arabidopsis lyrata and Arabidopsis thaliana x Arabidopsis halleri with 18 samples.

Results

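CBF2 and 9 other transcription factors that respond within the first hours of cold, or act on those that do, were followed in hybrid plants. The 10 genes were taken by transcript identifier from the 16419 genes of the deposited allele files, and all 10 were found. They were the AP2/ERF activator CBF2 (AT4G25470.1), the C2H2 zinc finger factors ZAT12 (AT5G59820.1), ZAT10 (AT1G27730.1) and ZAT6 (AT5G04340.1), and the class C heat shock factor HSFC1 (AT3G24520.1). The others were the AP2 and B3 domain factor RAV1 (AT1G13260.1), the cytokinin response factors CRF2 (AT4G23750.1) and CRF3 (AT5G53290.1), the DREB and EAR motif protein DEAR1 (AT3G50260.1), and CAMTA3 (AT2G22300.1), a calmodulin-binding transcription activator.

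RNA was sequenced from the aerial part of single F1 plants of *Arabidopsis thaliana* (Col-0) crossed with a perennial relative, in 6 groups of 3 plants each. By their labels 9 plants came from a cross with *Arabidopsis halleri* and 9 from a cross with *Arabidopsis lyrata* (MN47). In each hybrid, 3 plants had 1 h of cold at 4 °C, 3 were taken off the agar and left to lose water for 1 h at 22 °C, and 3 stayed at 22 °C as the standard group. Every plant was 4 weeks old and had been raised on medium with sucrose under 16 h of light and 8 h of dark. Both the cold and the dehydration hour were spent in dim light, the standard plants were described as leaf samples, and no time of day was given. An effect of the treatment and one of dim light, of the hour of sampling or of a difference in the tissue taken therefore cannot be told apart. The files name the second allele for the species opposite to the label in all 18 plants, so plants are called here halleri-labelled and lyrata-labelled, and the non-thaliana copy the second allele.

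In *A. thaliana*, cold reaches the CBF genes through calcium signals and through activators that include ICE1 and CAMTA factors, and within hours CBF proteins switch on the cold-regulated (COR) genes by binding the CRT/DRE element. A first wave of other factors, ZAT12, HSFC1, RAV1 and CRF genes among them, is induced in parallel with the CBF genes. ZAT10 and ZAT6 also answer to salt, osmotic and oxidative stress, and several of these genes respond within minutes to wounding, touch and light.

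The promoters of CBF2 and ZAT12 carried the element through which CAMTA3 is known to act on CBF2, and the promoter of ZAT10, whose level ran most closely with that of CBF2 among the other 9, is shown beside them. Each sequence is the 300 bases before the annotated start, 5′ to 3′ on the strand of the gene, from RefSeq assembly TAIR10.1 of Col-0. Capitals mark CCGCGT, the CAMTA element CM2, and AAATATCT, the evening element, on either strand.
CBF2, chr4:13016236-13016535, minus strand: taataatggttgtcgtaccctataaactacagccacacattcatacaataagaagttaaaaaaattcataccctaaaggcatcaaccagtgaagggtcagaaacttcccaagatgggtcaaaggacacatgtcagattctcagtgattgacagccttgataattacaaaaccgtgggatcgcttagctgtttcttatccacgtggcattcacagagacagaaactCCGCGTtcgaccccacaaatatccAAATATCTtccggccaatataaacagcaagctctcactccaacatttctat
ZAT12, chr5:24102514-24102813, plus strand: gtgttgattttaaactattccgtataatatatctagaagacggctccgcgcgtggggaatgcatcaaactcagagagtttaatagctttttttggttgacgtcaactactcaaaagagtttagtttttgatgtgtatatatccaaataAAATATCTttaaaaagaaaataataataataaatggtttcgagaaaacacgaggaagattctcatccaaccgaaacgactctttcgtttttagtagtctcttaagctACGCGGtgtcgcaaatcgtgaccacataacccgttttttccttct
ZAT10, chr1:9649324-9649623, minus strand: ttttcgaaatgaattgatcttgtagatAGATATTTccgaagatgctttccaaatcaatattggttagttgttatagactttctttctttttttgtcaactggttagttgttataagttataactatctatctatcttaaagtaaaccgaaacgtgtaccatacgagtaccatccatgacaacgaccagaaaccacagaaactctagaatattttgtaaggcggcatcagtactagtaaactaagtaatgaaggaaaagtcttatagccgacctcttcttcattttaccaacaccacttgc
In CBF2, CCGCGT lay 75 to 70 bases before the start and the evening element 51 to 44 bases before it. ZAT12 held CCGCGT on the reverse strand, where it reads ACGCGG along the gene, 45 to 40 bases before the start, and the evening element at 152 to 145. ZAT10 held an evening element on the reverse strand, at 273 to 266.

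Among 27437 protein-coding genes, 2.01% had CCGCGT within 300 bases on either strand, and 2 of the 10 genes did. AAATATCT occurred in 5.64% of all promoters and in 5 of the 10, namely those of CBF2, ZAT12, ZAT10, CRF2 and CAMTA3. The shorter CGCG, which lies inside CCGCGT, was found in 11.8% of all and again in CBF2 and ZAT12. The core of the CRT/DRE element, CCGAC, through which CBF proteins act, stood in 13.9% of all and in ZAT10, ZAT6 and DEAR1. The G-box CACGTG was held by 7.09% of all, CBF2 and CRF3, and the ABRE core ACGTG, which lies inside CACGTG, by 25.6% of all, CBF2, ZAT10 and CRF3. The E-box CANNTG, which also covers CACGTG, was in 61.9% of all and 8 of the 10, and the W-box core TTGAC in 50.4% of all and 7 of the 10. These matches describe the *A. thaliana* copies, and promoters of the second alleles were not used here.

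By the TAIR10.1 annotation, CBF2 is a single-exon gene on chromosome 4 at 13015250 to 13016235. ZAT12 (chromosome 5, 24102814 to 24103794), ZAT10 (chromosome 1, 9648021 to 9649323) and ZAT6 (chromosome 5, 1216058 to 1217362) also have 1 exon each. HSFC1 (chromosome 3, 8941066 to 8942874) has 2 exons and overlaps the antisense RNA gene AT3G24518. RAV1 (chromosome 1, 4542168 to 4543970), CRF2 (chromosome 4, 12376122 to 12378032), CRF3 (chromosome 5, 21617714 to 21619281) and DEAR1 (chromosome 3, 18634546 to 18635514) have 1 exon each. CAMTA3 (chromosome 2, 9471219 to 9476646) has 14 exons and overlaps the protein-coding gene AT2G22310 on the other strand. The library kit does not mark strand, so reads of HSFC1 and CAMTA3 and of these overlapping genes cannot be told apart. CBF2 stands beside the near-identical CBF1 and CBF3, which are absent from the deposited genes. The sources used here do not say how the authors' counting split such copies, so the values of CBF2 are uncertain to that degree.

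A level is the sum of both alleles in a plant, scaled between libraries, and a change is a difference of log2(level + 2) fitted with limma over 12950 genes, called at a Benjamini-Hochberg adjusted p below 0.05. Deposited totals were near equal, 1524104 to 1531268 per library, and 9493 to 11874 genes per library had a sum of at least 10. The true depth is unknown. In 5 of the 6 dehydration libraries 4 to 38 of the whole numbers from 1 to 100 did not occur, which scaling up a smaller library could leave. The thaliana share of reads was 61.27% in lyrata-labelled dehydration plant 2 and 49.12% to 51.09% in the other 17. The 5 leaf markers summed to 18600 to 34000 in cold halleri-labelled plants, against 58600 to 83800 in standard ones, and to 9200 to 20800 in cold lyrata-labelled plants, against 22500 to 103000 in standard ones. In this sum all cold plants thus lay below all standard plants of their hybrid, and the part of this in the cold changes of the 10 genes was not tested. The markers did not all fall, and 0 of the 5 were called in cold in either hybrid. Fitted cold changes were above 0 for 2 of the 5 in halleri-labelled and 0 of the 5 in lyrata-labelled plants. LHCA1 averaged 6360 in cold and 4060 in standard halleri-labelled plants, PSBO1 6220 and 5690, and RBCS1A 6400 and 44300. In cold halleri-labelled plants RBCS1A (4740 to 8420), LHCA1 (4530 to 8440) and RCA (4680 to 8430) had nearly the same range. So did RBCS1A (2810 to 6260), RCA (2730 to 6280) and PSBO1 (2780 to 6290) in cold lyrata-labelled plants, where LHCA1 was 561 to 3010. Whether the score has an upper limit in these libraries was not tested. After dehydration they summed to 48000 to 82700 in halleri-labelled and 37500 to 50900 in lyrata-labelled plants, which overlap the standard plants. Of 6 floral organ markers 2 were at 0 throughout, and the summed level of the list was 19.8 to 38.1 in halleri-labelled standard plants and 0 to 12.6 in all others. The 6 root markers summed to 78.1 to 3010, with the 3010 in lyrata-labelled dehydration plant 3. In bulk tissue, fewer cells of a type and less RNA per cell cannot be told apart, nor can either be told from an upper limit of the score.

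After 1 h of dehydration, 4 of the 10 genes rose in halleri-labelled plants: CBF2, ZAT12, ZAT10 and HSFC1. Over all genes, 3.07% were called in that comparison, 273 higher and 124 lower. None of the 10 passed the test after dehydration in lyrata-labelled plants (0.425% of all genes called), after cold in halleri-labelled plants (0.749%) or after cold in lyrata-labelled plants (0.880%). At an unadjusted p below 0.05 stood 6, 5 and 6 of the 10 in these comparisons, against 18.4%, 14.0% and 15.2% of all genes. Fitted changes were above 0 for 9 of the 10 in halleri-labelled dehydration, all but CRF2, and for 10 of 10 in each of the other 3, where 51.0% to 52.4% of all genes were above 0. The filter on low values (at least 10 in at least 3 libraries) was passed by all 10, several of them only through treated plants. CBF2 and HSFC1 were among these, with no standard plant at 10 or more, so these counts are a description only. Leaving out the 3 libraries that stood apart in earlier work (lyrata-labelled standard plant 1 and dehydration plant 2, halleri-labelled cold plant 1) left these 4 counts of called genes as they were.

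**Figure D1:**
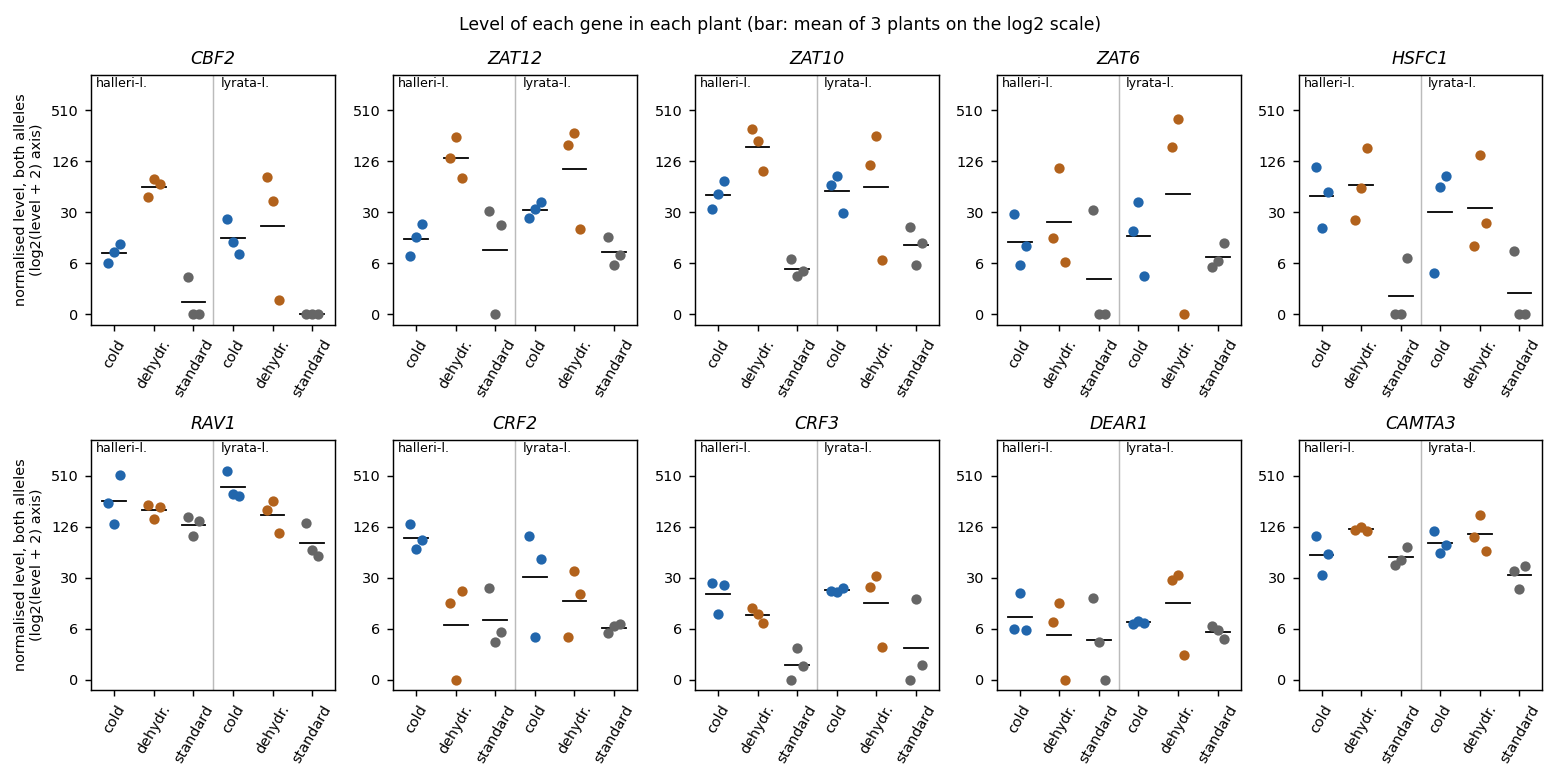
Level of each gene (both alleles summed, scaled; log2(level + 2) axis) in each of 18 plants, 3 per group, with cold, dehydration and standard plants of the halleri-labelled (left) and lyrata-labelled (right) hybrid. Points are plants and bars are means of 3 plants on the log2 scale. CBF2 is at 0 in all lyrata-labelled standard plants, and lyrata-labelled dehydration plant 3 lies far below the other 2 for CBF2, ZAT12, ZAT10 and ZAT6.

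The median fitted change of the 10 genes was 2.09 in dehydrated halleri-labelled plants, against 0.02 over all genes. In dehydrated lyrata-labelled plants it was 2.00, or 1.73 without CBF2, which is at 0 in every standard plant there, against 0.04 over all genes. In cold it was 1.69 in halleri-labelled plants, against 0.04 over all genes, and 2.04 in lyrata-labelled plants (1.97 without CBF2), against 0.06. All 3 treated plants lay above all 3 standard plants for 6 of the 10 in halleri-labelled dehydration (12.4% of all genes), for 4 in lyrata-labelled dehydration (11.2%), for 5 in halleri-labelled cold (8.76%) and for 7 in lyrata-labelled cold (12.2%). CBF2 was the only one of the 10 among them in all 4 comparisons, which share their standard plants within a hybrid. In lyrata-labelled dehydration its place rests on 1 unit in plant 3 (level 0.964), where all standard plants were at 0.

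CAMTA3, the factor upstream of CBF2, was measured at 115, 124 and 113 in dehydrated halleri-labelled plants and at 43.0, 50 and 72.5 in their standard plants. The groups did not overlap, and the change of 1.09 ± 0.50 (log2, SE) had a limma adjusted p of 0.24. In cold halleri-labelled plants it was 97.8, 32.3 and 58.2, around the standard values, with a change of 0.08 ± 0.50 (adjusted p = 0.97). Dehydrated lyrata-labelled plants had 94.1, 172 and 64.6 and cold ones 113, 61.0 and 75.5, against 36.4, 21.8 and 42.2 in standard plants. Both treatments lay wholly above standard there, by 1.60 ± 0.50 (adjusted p = 0.11) and 1.27 ± 0.50 (adjusted p = 0.23), neither of which passed.

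CBF2 itself rose in dehydrated halleri-labelled plants. Its level was 46.6, 76.7 and 68.0 there and 6, 8.91 and 11.6 in cold plants, against 3.49, 0 and 0 in standard plants. The 3 groups did not overlap. The change was 4.53 ± 0.85 (log2, SE) after dehydration (limma adjusted p = 0.0071). That call held in each of 6 fits without 1 plant and in 8 other settings, with adjusted p values from 0.0016 to 0.043. CBF2 passed the filter on low values only through treated plants, cold ones among them, which limits what its p can show. A fit with no filter was among the 8 settings. After cold the change was 1.92 ± 0.85 with an adjusted p of 0.31.

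In lyrata-labelled plants CBF2 was listed at 0 in all 3 standard plants, so no fold is given. Cold plants had 24.5, 12.4 and 8.39 (adjusted p = 0.091), and dehydrated plants 82.2, 41.1 and 0.964 (adjusted p = 0.067). Plants 1 and 2 of the dehydrated group were above every cold plant, and plant 3 was below them all. Without plant 3 the adjusted p was 0.00041, and over all settings it ran from that value to 0.3.

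ZAT12, which takes part in responses to reactive oxygen and high light, had 138, 245 and 79.7 in dehydrated halleri-labelled plants, against 31.4, 0 and 20.6 in standard plants. It rose by 3.62 ± 0.92 (log2, SE; limma adjusted p = 0.036). That call was kept in 1 of 6 fits without 1 plant, that without standard plant 1, and in 5 of 8 other settings, with adjusted p values from 0.011 to 0.18. Without standard plant 2, which is at 0, the change was 2.36. Cold halleri-labelled plants had 7.72, 14.5 and 21.3, within the range of the standard plants (0.44 ± 0.92, adjusted p = 0.89).

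In the lyrata-labelled hybrid, ZAT12 was 195, 276 and 18.3 after dehydration and 25.5, 32.7 and 40.1 after cold, against 14.3, 5.69 and 8.04 in standard plants. Every treated plant was above every standard plant. The changes, 3.26 ± 0.92 after dehydration (adjusted p = 0.094) and 1.67 ± 0.92 after cold (adjusted p = 0.41), did not pass. Without dehydration plant 3 the first was 4.43 with an adjusted p of 0.010, and over all settings its p ran from 0.01 to 0.34.

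ZAT10, a repressor of the same zinc finger family first known for salt tolerance, showed the largest rise of the 10 by fitted change. It was 310, 223 and 95.7 in dehydrated halleri-labelled plants and 32.6, 51.2 and 73.7 in cold ones, against 6.97, 3.63 and 4.48 in standard plants. No treated plant overlapped the standard plants, and no cold plant reached the lowest dehydrated plant. It rose by 4.79 ± 0.86 after dehydration (limma adjusted p = 0.0059), a call kept in all 6 fits without 1 plant and in 8 other settings (adjusted p from 0.0024 to 0.032). Of the standard plants only lyrata-labelled plants 1 and 3 (19.5 and 12.1) reached 10. Passing the filter on low values thus took treated plants as well, which limits what this p can show. A fit with no filter was among the 8 settings. The cold change of 2.91 ± 0.86 had an adjusted p of 0.11.

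Lyrata-labelled plants gave ZAT10 levels of 114, 250 and 6.75 after dehydration and 65.4, 84.9 and 29.8 after cold, against 19.5, 5.69 and 12.1 under standard conditions. The cold plants were all above the standard plants, and dehydrated plant 3 was within the standard range. The changes were 2.26 ± 0.86 after dehydration (adjusted p = 0.18) and 2.11 ± 0.86 after cold (adjusted p = 0.25). Without plant 3 the dehydration change was 3.69 with an adjusted p of 0.0044, over a range to 0.48.

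ZAT6, known from phosphate responses as well as from cold, was the most uneven between plants of a group. In dehydrated lyrata-labelled plants it was 186, 399 and 0, against 5.20, 6.64 and 12.1 in standard plants, a change of 2.48 ± 1.47 (adjusted p = 0.38). Leaving out plant 3, which is at 0, gave 4.84 with an adjusted p of 0.032, where the other settings gave up to 0.88. Halleri-labelled plants had 14.1, 106 and 6.38 after dehydration and 28.3, 5.57 and 10.7 after cold, against 32.5, 0 and 0 in standard plants. Its 3 other changes were 2.24 ± 1.47 in halleri-labelled dehydration, 1.46 ± 1.47 in halleri-labelled cold and 0.81 ± 1.47 in lyrata-labelled cold, with adjusted p values of 0.43, 0.72 and 0.84.

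HSFC1, a heat shock factor that is itself induced early in cold, was 23.9, 60.8 and 183 in dehydrated halleri-labelled plants and 107, 18.9 and 53.3 in cold ones, against 0, 0 and 7.16 in standard plants. Neither treatment overlapped the standard plants. It rose by 4.33 ± 1.08 after dehydration (limma adjusted p = 0.033), a call kept in 2 of 6 fits without 1 plant, those without dehydration plant 1 or standard plant 3, and in 5 of 8 other settings, with adjusted p values from 0.023 to 0.14. HSFC1 also passed the filter on low values only through treated plants, and with no filter its adjusted p was 0.064. The cold change, 3.92 ± 1.08, had an adjusted p of 0.087. In lyrata-labelled plants it was 10.8, 152 and 22.2 after dehydration and 4.09, 61.9 and 84.8 after cold, against 9.10, 0 and 0, with changes of 3.36 ± 1.08 (adjusted p = 0.12) and 3.19 ± 1.08 (adjusted p = 0.16). The lowest cold plant fell inside the standard range and the lowest dehydrated plant just above it.

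RAV1, which restrains growth in *A. thaliana*, was detected in every plant. Its clearest difference was in cold lyrata-labelled plants, at 575, 307 and 293, against 138, 65.5 and 55.3 in standard plants. The groups did not overlap, and the change of 2.20 ± 0.54 had a limma adjusted p of 0.058, the smallest of the 10 in that comparison. Without standard plant 1, the highest of its group, the change was 2.63 with an adjusted p of 0.045, over a range of settings from 0.0077 to 0.21. Cold halleri-labelled plants had 244, 134 and 523 and dehydrated ones 230, 157 and 216, against 164, 97.2 and 148, which overlap (0.94 ± 0.54 and 0.57 ± 0.54, adjusted p = 0.46 and 0.60). Dehydrated lyrata-labelled plants had 198, 255 and 105, also overlapping the standard plants (1.12 ± 0.54, adjusted p = 0.28).

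CRF2 and CRF3, AP2/ERF factors of the cytokinin response, are known in *A. thaliana* for induction by cold and a role in lateral root initiation. CRF2 was 136, 66.8 and 87.3 in cold halleri-labelled plants, 14.1, 0 and 20.2 in dehydrated ones and 22.1, 3.63 and 5.37 in standard ones. Only the cold plants stood clear of the standard range, with a change of 3.24 ± 0.95 (limma adjusted p = 0.11) beside -0.16 ± 0.95 for dehydration (adjusted p = 0.95). Cold exceeded dehydration by 3.41 ± 0.95 without overlap (adjusted p = 0.15). Without standard plant 1 the cold change was 3.88 with an adjusted p of 0.049, over a range of settings to 0.29. In lyrata-labelled plants CRF2 was 97.1, 4.42 and 51.2 in cold and 4.32, 36.1 and 18.3 in dehydration, against 5.20, 6.64 and 7.03, and both treated groups reach below the lowest standard plant (1.97 ± 0.95 and 1.04 ± 0.95, adjusted p = 0.33 and 0.59).

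CRF3 was 25.7, 10 and 24.2 in cold and 11.9, 9.96 and 7.44 in dehydrated halleri-labelled plants, against 0, 2.72 and 0.895 in standard plants. Both treatments lay above standard, by 2.77 ± 0.77 (adjusted p = 0.089) and 1.95 ± 0.77 (adjusted p = 0.17). Cold lyrata-labelled plants, at 20.4, 19.5 and 22.4, lay close together, against 0, 16.1 and 1.00 in standard plants (2.25 ± 0.77, adjusted p = 0.16). Dehydrated ones were 22.7, 31.1 and 2.89 and overlapped the standard plants (1.73 ± 0.77, adjusted p = 0.24).

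DEAR1, a DREB protein with a repressor motif, stayed low. Its level ran from 0 to 18.9 in the 12 cold and standard plants, from 0 to 13.9 in dehydrated halleri-labelled plants, and was 28.1, 32.1 and 1.93 in dehydrated lyrata-labelled plants. Its 4 changes were between 0.19 and 1.12, with adjusted p values of 0.52 to 0.93.

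**Figure D2:**
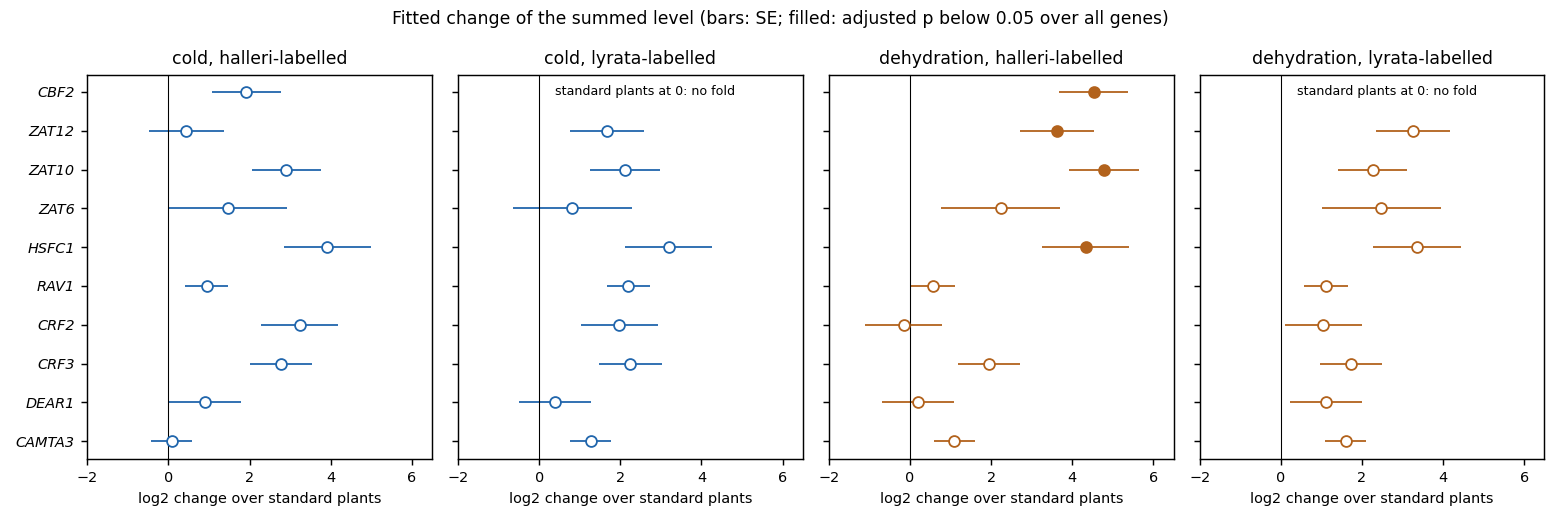
Fitted log2 change of each gene over standard plants in the 4 treatment comparisons (x axis, with SE bars; 3 plants against 3, spread shared over 18 plants). Filled points passed an adjusted p below 0.05: CBF2, ZAT12, ZAT10 and HSFC1 in dehydrated halleri-labelled plants. CBF2 is not drawn for the lyrata-labelled hybrid, where its standard plants are at 0.

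Set directly against dehydration, cold gave lower levels of CBF2, ZAT12, ZAT10 and CAMTA3 in halleri-labelled plants without overlap, 4 of the 10 beside 10.4% of all genes. The differences were -2.60 ± 0.85, -3.19 ± 0.92, -1.87 ± 0.86 and -1.01 ± 0.50, and none passed (limma adjusted p = 0.21, 0.16, 0.36 and 0.41; 0.108% of all genes called). In lyrata-labelled plants 0 of the 10 were called between cold and dehydration (0.0232% of all genes), and 0 stood at an unadjusted p below 0.05, against 9.17% of all genes. There, only RAV1 separated the plants, with all 3 cold plants above all 3 dehydrated ones (1.09 ± 0.54, adjusted p = 0.56).

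The responses of the hybrids were compared by an interaction term. None of the 10 passed for cold (0.0154% of all genes called) or for dehydration (0% called). At an unadjusted p below 0.05 stood 0 for cold and 1 for dehydration, against 7.75% and 9.81% of all genes. The largest of these differences was that of ZAT10 after dehydration, 2.53 ± 1.21 in halleri-labelled minus lyrata-labelled plants (limma adjusted p = 0.51). So the calls in dehydrated halleri-labelled plants were not shown to differ from the changes in lyrata-labelled ones. Between the standard plants of the hybrids 0 of the 10 were called, beside 1.83% of all genes, and 0 had an unadjusted p below 0.05, against 17.6% of all genes. CAMTA3 was the only one without overlap, higher in halleri-labelled plants by 0.70 ± 0.50 (adjusted p = 0.50).

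Lyrata-labelled dehydration plant 3 decided several of these calls. Without it, CBF2, ZAT12, ZAT10 and ZAT6 passed after dehydration in that hybrid, and 327 genes in all were called, against 55 with it. In that plant 6 measured touch and wound genes summed to a level of 180, against 3150 and 2910 in the other 2 dehydrated plants and 157 to 267 in standard plants. In halleri-labelled plants the same 6 genes summed to 1570 to 3350 after dehydration and 855 to 1110 after cold, against 268 to 446 under standard conditions. Dehydrated plants were handled when taken off the agar, and the part of that list in the results was not tested.

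CBF4, the drought-responsive relative of CBF2, was the CBF paralog measured. It stood at 51.0 to 59.5 in dehydrated halleri-labelled plants and was listed at 0 in all 3 cold and all 3 standard plants of that hybrid. In lyrata-labelled plants it was 0 to 36.1 after dehydration, 0 to 1.02 after cold and 0 in standard plants. It passed the filter on low values only through dehydrated plants, so these levels are a description and no p is given.

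Of 19 tested genes that act upstream of CBF, 0 were higher in any of the 4 treatment comparisons and 1 was lower in each of the 2 comparisons of halleri-labelled plants. These were PIF3, a light-signalling factor that represses CBF genes, after dehydration (-3.42 ± 0.74, adjusted p = 0.016) and the kinase MKK2 after cold (-2.10 ± 0.48, adjusted p = 0.044). Between standard plants PIF4 was lower in halleri-labelled ones (-2.93 ± 0.55, adjusted p = 0.0080). The list's median change was between -0.53 and -0.05 in the 4 comparisons.

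Among 14 tested relatives of the 10 and other early cold factors, ERF6, an ethylene response factor, rose in halleri-labelled plants by 3.51 ± 0.69 in cold (limma adjusted p = 0.020) and 4.41 ± 0.69 in dehydration (adjusted p = 0.0028). No other of the 14 was called in the 4 comparisons, and their median changes were 1.41 and 1.12 in halleri-labelled and lyrata-labelled dehydration and 1.46 and 1.13 in cold. Of 17 listed cold-regulated targets of the pathway only 9 were among the deposited genes, with COR15A, KIN1 and ERD10 among those absent, and 8 were tested. The 8 therefore do not stand for the whole list. Of these 8, 5 rose in dehydrated halleri-labelled plants, among them ERD7 (3.94 ± 0.90, adjusted p = 0.021) and RCI2A (3.02 ± 0.73, adjusted p = 0.029). RD29A alone rose in dehydrated lyrata-labelled plants (3.62 ± 0.77, adjusted p = 0.044). None of the 8 passed after cold in either hybrid, where their medians were 0.95 in halleri-labelled and 0.26 in lyrata-labelled plants, against 2.70 and 2.12 after dehydration.

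Of 10 circadian clock genes, 3 rose in each of the 4 comparisons, 1 fell in lyrata-labelled cold, and the other 6 or 7 did not pass. Median changes of the list were 1.12 and 1.97 in halleri-labelled and lyrata-labelled dehydration and 0.52 and 1.70 in cold, and the part of these genes in the levels of the 10 was not tested. PRR5 was 94.6 to 199 in dehydrated and 109 to 138 in cold halleri-labelled plants, against 0 to 4.54 in standard ones, and its change was 5.37 ± 0.56 (adjusted p = 7.4e-05) and 5.12 ± 0.56 (adjusted p = 8.3e-05). LUX, of the evening complex, rose by 4.16 ± 0.61 in halleri-labelled cold (adjusted p = 0.0029) and 4.03 ± 0.61 in lyrata-labelled cold (adjusted p = 0.0045). No standard plant of either hybrid was above 8.54 for PRR5 or 3.9 for LUX. Both thus passed the filter on low values only through treated plants, which limits what their p can show. LHY fell by 3.65 in lyrata-labelled cold (SE 0.70, adjusted p = 0.018). Of the 6 measured touch and wound genes 3 rose in halleri-labelled dehydration, SZF1 (3.85 ± 0.80, adjusted p = 0.013) and the calmodulin-like TCH2 (3.15 ± 0.67, adjusted p = 0.014) with the smallest p, and 0 passed in the other 3 comparisons. The floral gene SEP3 fell in halleri-labelled dehydration (-3.00 ± 0.65, adjusted p = 0.016), at 0 to 1.08 there against 9.30 to 31.8 in standard plants. SEP3 passed the filter only through cold and standard halleri-labelled plants, which limits its p in the same way.

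Among genes other than the 10, levels of CBF2 over the 18 plants ran most closely with those of AT5G65300 and AT2G25250 (Pearson r of log2 level 0.925 each), AT1G17147 (0.912), AT2G38790 (0.909) and DREB2B (0.904), a factor of dehydration responses. These points share libraries, groups and scaling, so r is a description. AT1G17147 averaged 161 ± 80.0 in dehydrated and 58.8 ± 29.4 in cold halleri-labelled plants, against 4.27 ± 2.31 in standard plants (SD, n = 3 each). Among the 10, r with CBF2 was 0.913 for ZAT10, 0.843 for ZAT12, 0.75 for CAMTA3 and 0.677 for ZAT6. It was 0.617 for CRF3, 0.616 for HSFC1, 0.587 for RAV1, 0.416 for DEAR1 and 0.098 for CRF2. Over the 45 pairs of the 10 genes r ran from -0.10 to 0.91 with a median of 0.55.

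In an F1 both alleles share a nucleus, so their ratio compares the parental copies in 1 plant. The ratio used here is log2 of the second over the thaliana allele, as deposited with 1 added to each, tested with limma over genes whose alleles summed to 10 or more per plant on average. A plant with neither allele detected has a ratio of 0 by construction. In halleri-labelled plants 3 of the 9 tested genes were called (DEAR1, at a mean of 7.67, was not tested), beside 59.2% of all genes, and in lyrata-labelled plants 5 of the 10, beside 46.2% of all genes. The first share is below the background and the second close to it, so the number called is no feature of these genes.

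CBF2 was read almost wholly from the thaliana allele in lyrata-labelled plants. The rule that gave reads to an allele is not stated, so a second allele without expression and one left uncounted cannot be told apart. The second allele held 82 units in all over 9 halleri-labelled plants beside 132 for the thaliana allele, 38.3%, whereas it held 1 over 9 lyrata-labelled plants beside 164, 0.606%. In cold lyrata-labelled plants the second allele was 0, 1 and 0 beside 24, 13 and 9 for thaliana, in dehydrated ones 0, 0 and 0 beside 76, 41 and 1, and standard plants held neither allele. The mean ratio was -2.60 ± 0.47 (limma adjusted p = 0.0013), and the call was kept in all 9 fits without 1 plant and in 6 other settings. The standard ratios in this mean are 0 by construction and have no spread, which limits what its p can show. In halleri-labelled plants the second allele was 5, 6 and 4 beside 2, 2 and 8 in cold and 12, 37 and 16 beside 31, 40 and 48 in dehydration. All 3 dehydrated plants there had more of the thaliana allele and 2 of 3 cold plants more of the second, with a mean ratio of -0.11 ± 0.24 (adjusted p = 0.72). The hybrids differed by 2.5 ± 0.56, halleri-labelled minus lyrata-labelled (adjusted p = 0.0029), in all 18 fits without 1 plant and 6 other settings. Ratios of 0 by construction enter this difference too, in all lyrata-labelled and 2 of 3 halleri-labelled standard plants, and limit its p likewise.

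RAV1 leaned to opposite alleles in the hybrids. In halleri-labelled plants the thaliana allele was higher in 9 of 9 plants, with 693 units for the second allele and 1236 for thaliana (35.9% second), and in lyrata-labelled plants the second allele was higher in 8 of 9, with 1216 and 784 (60.8%). The mean ratio was -0.97 ± 0.15 (limma adjusted p = 0.00025) in halleri-labelled plants and 0.62 ± 0.16 (adjusted p = 0.0070) in lyrata-labelled plants. The difference was -1.59 ± 0.23 (adjusted p = 7.2e-05), kept in all 18 fits without 1 plant and in 7 other settings. By plant the ratio ran from -2.37 to -0.18 in the halleri-labelled hybrid and from -0.15 to 1.47 in the lyrata-labelled hybrid, and the 2 ranges did not overlap.

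**Figure D3:**
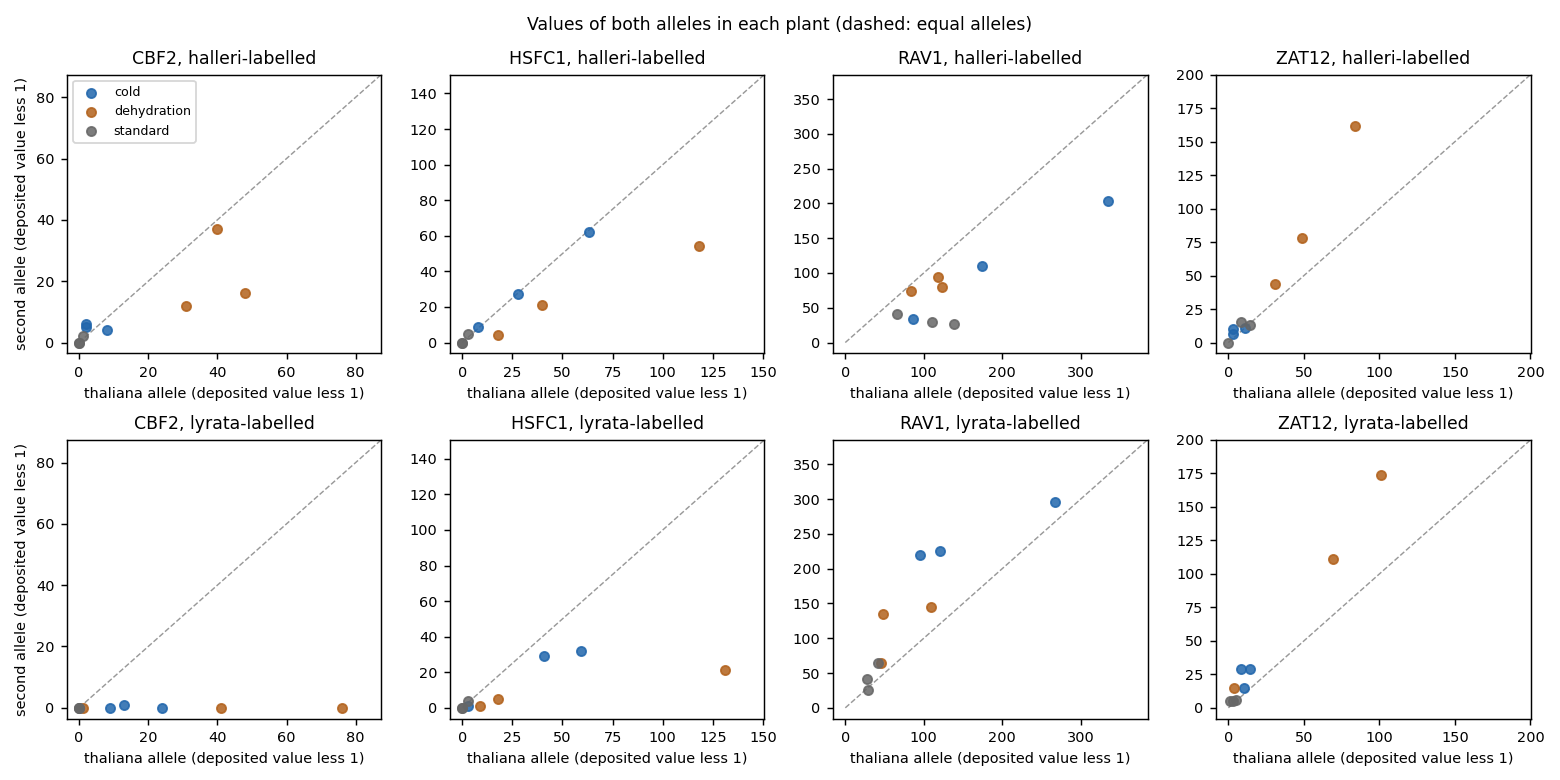
Deposited value less 1 of the thaliana allele (x axis) and the second allele (y axis) of CBF2, HSFC1, RAV1 and ZAT12 in each plant of the halleri-labelled (top) and lyrata-labelled (bottom) hybrid, coloured by treatment. CBF2 lies along the x axis in lyrata-labelled plants, where the second allele never exceeds 1, and RAV1 lies below the line of equal alleles in the halleri-labelled and mostly above it in the lyrata-labelled hybrid.

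ZAT12 leaned to the second allele in both hybrids, with 62.5% in halleri-labelled plants (339 and 203 for thaliana; higher in 6 of 9) and 64.4% in lyrata-labelled plants (389 and 215; higher in 9 of 9). The ratios were 0.57 ± 0.16 (limma adjusted p = 0.011) and 0.98 ± 0.19 (adjusted p = 0.0015), and their difference of -0.41 ± 0.26 did not pass (adjusted p = 0.24). CAMTA3 leaned the same way, with 55.2% (393 and 319, higher in 7 of 9 halleri-labelled plants) and 58.4% (397 and 283, higher in 9 of 9 lyrata-labelled plants). Its ratio passed in lyrata-labelled plants at 0.53 ± 0.11 (adjusted p = 0.0028), while that of halleri-labelled plants was 0.22 ± 0.12 (adjusted p = 0.12). The CAMTA3 difference was -0.31 ± 0.16 (adjusted p = 0.15).

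HSFC1 leaned to the thaliana allele, with a second-allele share of 39.6% in halleri-labelled plants (182 and 278) and 26.1% in lyrata-labelled plants (93 and 264). In halleri-labelled plants this was seen only after dehydration. The mean ratio there was -1.31 in dehydrated, 0.03 in cold and 0.19 in standard plants. In lyrata-labelled plants it was -2.19, -0.78 and 0.11. Most standard ratios were 0 by construction. Averaged over the treatments, the ratio was -0.36 ± 0.14 (limma adjusted p = 0.042) in halleri-labelled plants. That call was kept in only 2 of 9 fits without 1 plant (dehydration plant 2 or standard plant 3). In lyrata-labelled plants the averaged ratio was -0.96 ± 0.16 (adjusted p = 0.00066), a call kept in all 9. The difference of 0.59 ± 0.20 (adjusted p = 0.033) was kept in 8 of 18 such fits, with adjusted p values from 0.015 to 0.083 over all settings. It was lost without any of the 3 cold plants, dehydration plants 2 or 3 or standard plant 3 of the halleri-labelled hybrid, and without cold plants 1 or 3 or dehydration plants 1 or 2 of the lyrata-labelled hybrid. For the other genes no lean was called. Second-allele shares in halleri-labelled and lyrata-labelled plants were 56.6% and 44.9% for ZAT10, 42.1% and 52.4% for ZAT6, and 52.7% and 50% for CRF2. They were 43.8% and 54.0% for CRF3 and 47.8% and 31.3% for DEAR1. Between the hybrids 3 of the 9 genes tested differed, CBF2, HSFC1 and RAV1, beside 31.1% of all genes.

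Whether treatment shifted the allele ratio was tested within each hybrid. Cold shifted 0 of the 10 genes' ratios by the test, in halleri-labelled plants (9 tested, 2.48% of all genes called) and in lyrata-labelled plants (0.111% called). At an unadjusted p below 0.05 stood 0 and 4 of them, against 18.4% and 10.1% of all genes. With dehydration 1 of 9 was called in halleri-labelled plants, HSFC1, beside 4.08% of all genes, and 0 in lyrata-labelled plants (0.0855% called). Here 3 and 4 stood at an unadjusted p below 0.05, against 21.4% and 13.3% of all genes. In lyrata-labelled plants the 4 were CBF2, ZAT10, HSFC1 and DEAR1 under either treatment. Standard ratios there were 0 by construction in all plants for CBF2 and in most for HSFC1. The HSFC1 call in halleri-labelled plants has almost no standard value behind it.

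The second allele of HSFC1 in dehydrated halleri-labelled plants was 4, 21 and 54 beside 18, 40 and 118 for thaliana, ratios of -1.93, -0.90 and -1.11. In cold plants it was 62, 9 and 27 beside 63, 8 and 28, ratios of -0.02, 0.15 and -0.05. Of the standard plants 2 held no HSFC1 and the other had 5 beside 3. The change of -1.51 ± 0.34 (limma adjusted p = 0.038) thus rests on standard ratios that are 0 by construction in 2 of 3 plants, and was kept in 2 of 6 fits without 1 plant, those without standard plant 1 or 2, and in 3 of 7 other settings (adjusted p from 0.029 to 0.10). In lyrata-labelled plants the ratios were -2.32, -2.58 and -1.66 in dehydration and -1, -0.49 and -0.86 in cold, and the change with dehydration was -2.30 ± 0.39 (adjusted p = 0.067). The median of that change over all genes was -0.24, and dehydration plant 2 had a median ratio of -0.593 over genes. In each hybrid all 3 dehydrated plants were below all 3 cold plants. That difference between treatments was not tested.

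Other ratio changes did not pass. The ratio of RAV1 was -0.32, -0.18 and -0.61 in dehydrated halleri-labelled plants, against -1.85, -0.67 and -2.37 in standard plants, a change of 1.26 ± 0.37 without overlap (limma adjusted p = 0.081). Without standard plant 2 it was 1.74 with an adjusted p of 0.012, over a range of settings to 0.22. The ratio of ZAT10 in lyrata-labelled plants was -0.24, -0.2 and -1 in dehydration and -0.62, -0.42 and -0.87 in cold, against 0.87, 0.74 and 0 in standard plants. Neither treatment overlapped the standard plants, and the changes were -1.02 ± 0.35 (adjusted p = 0.25) and -1.17 ± 0.35 (adjusted p = 0.24).

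**Figure D4:**
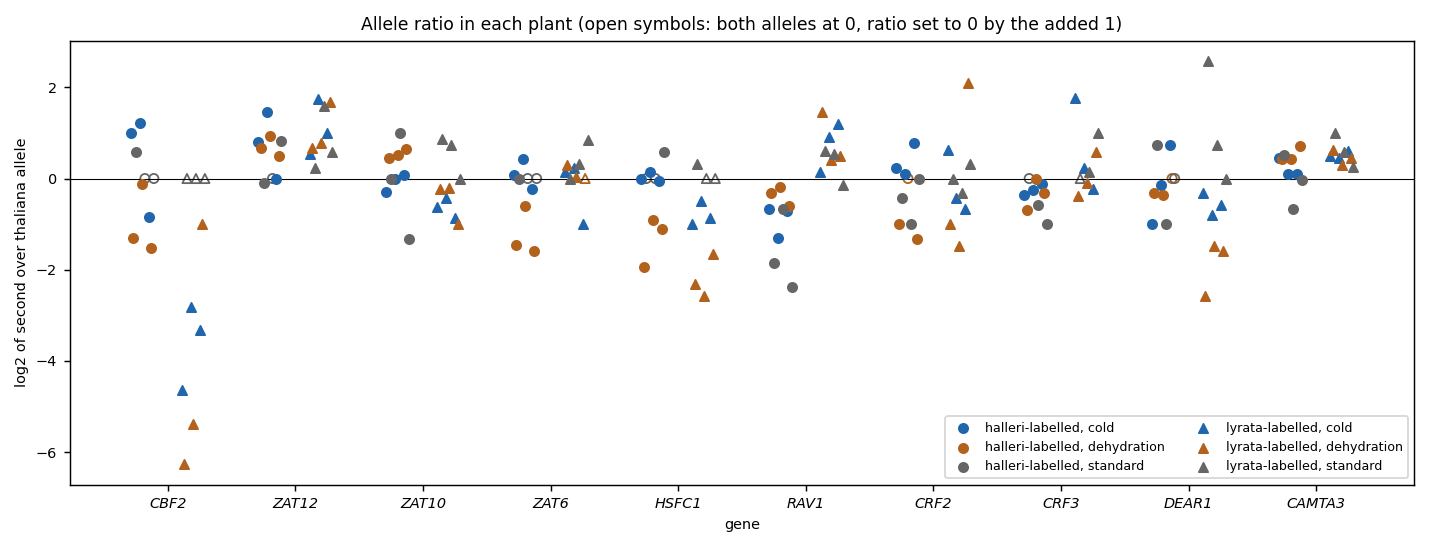
Log2 of the second over the thaliana allele (y axis) of each gene in each plant, with halleri-labelled plants (circles) left of lyrata-labelled plants (triangles), coloured by treatment. Open symbols are plants in which both alleles are at 0. RAV1 lies below 0 in 9 of 9 halleri-labelled and above 0 in 8 of 9 lyrata-labelled plants, and CBF2 falls to -6.27 in a dehydrated lyrata-labelled plant.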

How the data were processed

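Total RNA came from the aerial part of 1 F1 plant per library (TruSeq RNA v2, per the labels' protocols). The deposited files hold a whole-number score per gene and allele, per the file headers. From its values (minimum 1, near-equal totals) the score appears to be reads scaled by 1 factor per library and rounded, with 1 added, which no source states. Per the submitters' processing notes, TAIR10 was a build and TopHat2, SAMtools and DESeq2 were tools, with no version or role stated. The rule that gave a read to an allele is not stated in the sources used here.

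Because the score is not a count, limma 3.58.1 in R 4.3.3 was used, with eBayes (trend and robust), 2-sided p values and Benjamini-Hochberg adjustment over all genes. For levels the 1 was taken off each allele, alleles were summed and scaled by TMM factors (trim of 30% and 5%), and log2(level + 2) was fitted over 18 libraries for 12950 genes with at least 10 in at least 3 libraries. A fold change on that scale understates the change of low genes. The allele ratio kept the added 1, which pulls low genes toward equal alleles, and was fitted per hybrid for genes whose sum averaged 10 or more per plant, or over 18 libraries for the difference between hybrids. Both tests were tested on simulated data. Promoters and coordinates came from TAIR10.1, in which 16404 of 16419 genes were matched.

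The 10 genes, the lists and the alternatives were chosen with earlier results of these data known. All 10 genes are named in every comparison, and of each list at most the 2 called genes with the smallest p in a direction. Alternatives were another scaling, no scaling, no filter, 10 added before log2, library weights, a fit restricted to the groups compared, the replicate number as a block, every library omitted in turn, and omission of 3 libraries that had stood apart in earlier work (lyrata-labelled standard 1 and dehydration 2, halleri-labelled cold 1). For allele ratios they were a mean of at least 50, centring, and 0.5 added to each allele.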

Additional observations from a re-analysis of the deposited data

Results flagged for a closer look

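The allele ratio of 3 of 9 tested genes differed between the hybrids by a test of the difference itself (limma, Benjamini-Hochberg over 11768 genes), halleri-labelled minus lyrata-labelled plants. Over all genes 31.1% were called, so the number of genes is near the background. It was 2.5 ± 0.56 for CBF2, 0.59 ± 0.20 for HSFC1 and -1.59 ± 0.23 for RAV1. The HSFC1 call was kept in 8 of 18 fits without 1 plant, and those of CBF2 and RAV1 in all 18. For CBF2 and HSFC1, standard plants with neither allele detected entered at a ratio of 0 by construction, which limits these calls. The files name the second allele for the species opposite to the label in every plant, so which parent each second allele came from could not be settled.

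In 2 sets of 9 lyrata-labelled plants a single plant stood far from the others. The ZAT6 ratio was -1 in cold plant 3, where the nearest other plant was at 0 and the deposited values were 1 for the second and 3 for the thaliana allele above the added 1. The CAMTA3 ratio was 1.00 in standard plant 1, with the nearest at 0.63. Chance flags about 1 in 20 groups.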

How the results depend on the processing

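No called result changed sign under any setting. The number of the 10 genes called moved as follows. Cold, lyrata-labelled: 0 as reported, 1 with the scaling as deposited (RAV1), 3 with library weights, and 0 to 1 with 1 plant left out. Dehydration, lyrata-labelled: 0 as reported, 5 with library weights, and 0 to 4 with 1 plant left out. Cold, halleri-labelled: 0, and 0 to 1 with 1 plant left out (CRF2 without standard plant 1). Dehydration, halleri-labelled: 4 as reported, 2 with no filter, 2 of 8 tested when only the groups compared entered the fit, and 2 to 3 with 1 plant left out. Cold over dehydration, halleri-labelled: 0 as reported and 1 with library weights (ZAT12). Allele lean, lyrata-labelled: 5 as reported, 3 of 5 tested at a mean of at least 50, and 6 without standard plant 1 (DEAR1, at -0.69 against -0.45 as reported, with an adjusted p of 0.027 there and up to 0.43 in other settings). Allele lean, halleri-labelled: 3 as reported, 5 with no filter, and 2 to 5 with 1 plant left out (5 without dehydration plant 2). Change of the allele ratio with dehydration: 0 to 2 in lyrata-labelled plants with 1 plant left out (CBF2 and HSFC1 without plant 3), and in halleri-labelled plants 1 as reported, 0 with no filter, without the 3 libraries that stood apart, with the replicate block or with 0.5 added, and 0 to 2 with 1 plant left out. Cold change of the ratio, halleri-labelled: 0 to 1 with 1 plant left out (RAV1 without standard plant 2). Hybrid difference of the ratio: 3 as reported, 1 of 4 tested at a mean of at least 50. The settings with fewer genes tested could call fewer, and for the others the cause was not tested.

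Replicate numbers did not pair the plants: deviations of plants with the same number correlated at -0.107 to 0.173, and 1 of 18 pairs exceeded 0.1. With the replicate number as a block 3 of the 10 genes were called in halleri-labelled dehydration, 0 in each of the other 3 treatment comparisons, 3 and 5 for allele lean in halleri-labelled and lyrata-labelled plants, and 2 for its difference. With the scaling as deposited the median change of all genes was 0.23 in lyrata-labelled cold and 0.11 in lyrata-labelled dehydration. Depth limits all low values: every one of the 10 but ZAT10, RAV1 and CAMTA3 had 0 in some plants, which at an unknown depth does not show absence, and the whole numbers missing in 5 dehydration libraries may come from shallower libraries.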
